A study of Mus musculus with 18 samples.

Results

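Cajal-Retzius cells are early-born neurons of the marginal zone that release reelin, and the 10 genes examined here were a set of their markers. Reln, Trp73, Lhx1, Lhx5, Ebf3, Calb2, Nhlh2 and Ndnf are 8 classic markers of these cells. Nxph4 and Cacna2d2 were chosen by their higher FPKM in conditional knockout (cKO) than in control tissue, so their values are a description in every comparison and carry no test. The question was whether the classic markers rose with them. Each member was read from the row that bore its symbol. Where a symbol had more than 1 row, the row with the highest mean was taken. All 10 members had a row in each of the 4 tables, among 23138 named genes in Kdm2b hippocampus, 23398 in neurospheres, and 54429 each in neocortex and Rnf2 hippocampus.

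RNA-seq was performed on 18 libraries from mice at postnatal day 0. Hippocampal tissue of Kdm2b Emx1-∆CxxC cKO mice (3 libraries) was compared with controls labelled Kdm2bfl/+ or Kdm2bfl/fl (3 libraries). Neocortex of the same genotypes had 2 cKO and 2 control libraries, and so did neurospheres, which are floating cultures of progenitors enriched from the hippocampus and kept in FGF2 and EGF. Hippocampi of Rnf2 Emx1-Cre cKO mice (2 libraries) had controls labelled Rnf2fl/+ or Rnf2fl/fl (2 libraries). Controls therefore carried floxed alleles, and the labels did not say which control library was fl/+ and which fl/fl. The Kdm2b allele loses exon 13, which encodes the CxxC zinc finger, and the remainder of the gene is still transcribed. Emx1-Cre acts in the progenitors of the dorsal telencephalon and their progeny, so interneurons, meninges and other cells of a dissected block keep the intact allele. Values were FPKM, read fragments scaled to gene length and library size, as deposited by the authors. The labels did not state whether a library came from 1 animal or several, so the p-values measure the spread between libraries.

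Most Cajal-Retzius cells of the hippocampus arise from the cortical hem, the signalling centre beside the hippocampal primordium, and settle along the hippocampal fissure and the outer surface of the dentate gyrus. Reelin, the large glycoprotein they secrete, binds the receptors APOER2 (Lrp8) and VLDLR on migrating neurons and acts through the adaptor DAB1. KDM2B brings a variant Polycomb repressive complex 1 to unmethylated CpG-rich promoters through its CxxC zinc finger, and RNF2 (RING1B) is the ubiquitin ligase of Polycomb repressive complex 1. Several members are also made elsewhere. Interneurons express Reln, Calb2 or Ndnf, and Lhx1, Lhx5, Ebf3, Nhlh2 and Nxph4 mark other neurons too. In bulk tissue, a change in the number of cells of a type cannot be told apart from a change in the RNA of each cell.

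Since the protein domain removed in the Kdm2b mice reads CpG, promoter stretches are shown for Lhx1 and Ebf3, the classic markers called higher in Kdm2b cKO hippocampi, and for Reln, which was not. Each runs from 250 to 11 bases before the RefSeq start (GRCm38.p6, minus strand, written 5′ to 3′), with every CG in capitals. A CG reads the same on either strand. The Reln and Ebf3 stretches (chr5:22344716-22344955 and chr7:137314456-137314695) lie upstream of the genes and overlap no annotated exon. The Lhx1 stretch (chr11:84525545-84525784) overlaps an exon of the antisense gene Lhx1os.
Reln: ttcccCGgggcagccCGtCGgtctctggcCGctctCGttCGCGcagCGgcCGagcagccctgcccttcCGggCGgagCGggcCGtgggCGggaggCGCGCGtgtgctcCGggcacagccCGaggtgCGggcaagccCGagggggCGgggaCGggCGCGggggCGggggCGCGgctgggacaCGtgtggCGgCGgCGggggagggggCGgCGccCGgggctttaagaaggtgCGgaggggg
Ebf3: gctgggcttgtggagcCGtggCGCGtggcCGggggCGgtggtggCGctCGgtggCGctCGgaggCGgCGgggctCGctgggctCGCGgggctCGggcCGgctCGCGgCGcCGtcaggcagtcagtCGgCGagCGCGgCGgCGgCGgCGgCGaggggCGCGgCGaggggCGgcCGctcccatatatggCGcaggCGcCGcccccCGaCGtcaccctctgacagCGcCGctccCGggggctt
Lhx1: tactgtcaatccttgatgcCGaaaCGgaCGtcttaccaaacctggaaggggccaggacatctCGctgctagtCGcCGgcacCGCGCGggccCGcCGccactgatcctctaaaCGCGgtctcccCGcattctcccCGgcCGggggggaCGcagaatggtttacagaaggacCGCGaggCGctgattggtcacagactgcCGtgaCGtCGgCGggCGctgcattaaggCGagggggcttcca
In the full 300-base window, which ends 50 bases after the start, Reln held 47 CG, Ebf3 46 and Lhx1 31. The median over 32851 promoters was 7. As many CG as in Reln were found in 1.44% of promoters, as many as in Ebf3 in 1.65%, and as many as in Lhx1 in 10.6%. Cacna2d2 held 43 (2.61% of promoters held as many), and Nhlh2 held 2 (85.9%). Trp73 has more than 1 start in this table. One window held 39 CG and another 6, and the gene-level FPKM did not separate their transcripts. A promoter was found for 6 of the 10 members. CG counts of the called and uncalled markers overlapped, and no binding was measured in these libraries.

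The members differed widely in level. In control hippocampi of the Kdm2b series, Reln averaged 96.0 ± 14.7 FPKM and Calb2, which encodes the calcium-binding protein calretinin, 95.2 ± 6.85 FPKM (SD, n = 3). These neighbours in the order did not differ beyond their spread. Nhlh2 (16.7 ± 0.819 FPKM), Ndnf (11.96 ± 1.27 FPKM), Trp73 (11.7 ± 1.30 FPKM), Cacna2d2 (9.87 ± 1.38 FPKM) and Nxph4 (9.23 ± 0.770 FPKM) followed. Ndnf and Trp73 lay within each other's spread, and so did Cacna2d2 and Nxph4. Lhx5 (3.99 ± 0.427 FPKM), Ebf3 (3.68 ± 0.526 FPKM) and Lhx1 (2.54 ± 0.301 FPKM) were lowest. Control hippocampi of the Rnf2 series placed Calb2 and Reln at the top and Lhx5, Lhx1 and Ebf3 at the bottom as well. In control neocortex the members ran from 0.554 FPKM for Lhx1 to 9.91 FPKM for Reln. Levels are not set against each other across tables, because each table was normalised by itself.

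The targeted genes were examined first. Kdm2b was 29.4 ± 2.15 FPKM in control and 27.2 ± 0.992 FPKM in cKO hippocampi (SD, n = 3), and it did not pass the test there, in neurospheres or in neocortex. This gene-level value does not separate exon 13, so it does not check the labels. Rnf2 was 32.3 and 30.8 FPKM in the Rnf2 control libraries and 28.5 and 27.8 FPKM in the Rnf2 cKO libraries. The cKO libraries were the lower ones, but the difference was small (log2 fold change −0.16, 95% confidence interval −0.41 to 0.09, limma adjusted p = 0.762). The deposited values do not separate a deleted exon of Rnf2 either. Of the 3 Kdm2b cKO hippocampal libraries, 1 had Xist, the RNA of the inactive X chromosome, above 10 FPKM, and 0 of the 3 controls did. In neocortex 1 of 2 control and 2 of 2 cKO libraries did. In neurospheres 2 of 2 control and 1 of 2 cKO libraries did, and in Rnf2 hippocampi all 4 libraries did. The tissue labels were checked, table by table, against Neurod6, a gene of dorsal telencephalic neurons. Its control level was 158 ± 18.9 FPKM in Kdm2b hippocampi (SD, n = 3), 201 ± 16.8 FPKM in Rnf2 hippocampi and 528 ± 50.7 FPKM in neocortex (n = 2 each). In control neurospheres it was 0.0539 ± 0.0304 FPKM, and the progenitor gene Sox2 was 243 ± 19.7 FPKM (n = 2 each). Neurosphere control library 1 stood apart, with 22.7% of its named FPKM on Mir6236 and 29.3% of its total on entries without a name.

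In Kdm2b cKO hippocampi, Nxph4, which was picked for its rise, was 2.79-fold higher, and the classic markers did not move as a block. Lhx1 and Ebf3 were called higher. Trp73, Lhx5, Nhlh2 and Calb2 were slightly higher, by less than the fold threshold. Reln and Ndnf did not change detectably. A gene was called when its difference of log2(FPKM + 1) exceeded 0.4 in size with an unadjusted p under 0.05 in limma. By that rule 2 of the 8 classic markers were called higher and 0 lower, where 3.89% of the 13446 genes tested were called higher and 2.25% lower. The median difference of the 8 classic markers was 0.22 on the log2(FPKM + 1) scale, against 0.01 over all genes tested.

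Nxph4 encodes neurexophilin 4, a secreted ligand of the neurexin family of synaptic adhesion proteins. It was 9.57, 8.34 and 9.77 FPKM in the 3 controls and 26.7, 27.0 and 23.7 FPKM in the 3 cKO libraries. The groups were far apart, with a 2.79-fold ratio of means and a difference of 1.39 on the log2(FPKM + 1) scale. Cacna2d2, an auxiliary alpha-2-delta subunit of voltage-gated calcium channels, was 10.3, 8.31 and 10.96 FPKM in controls and 13.7, 16.3 and 13.9 FPKM in cKO libraries. All of its cKO libraries exceeded all controls, by 1.48-fold on average. Both genes were chosen for a rise in cKO, so no test is attached to these values.

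Among the classic transcription factors, Lhx1 and Ebf3 had the largest differences. Lhx1, a LIM-homeodomain factor made in Cajal-Retzius cells and in many neurons outside the telencephalon, was 2.84, 2.24 and 2.53 FPKM in controls and 4.29, 5.05 and 4.30 FPKM in cKO libraries. The groups did not overlap, and Lhx1 rose by 0.65 (SE 0.11, 95% confidence interval 0.41 to 0.89, limma adjusted p = 0.00930). Ebf3, a helix-loop-helix factor of the COE family that is expressed in hem-derived Cajal-Retzius cells, was 3.93, 3.08 and 4.04 FPKM in controls and 4.90, 10.1 and 8.17 FPKM in cKO libraries. Its cKO libraries were spread widely, and the lowest of them sat just above the highest control. Ebf3 rose by 0.85 (SE 0.20, interval 0.39 to 1.31, limma adjusted p = 0.0356). Both calls stood when any single library was left out.

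Lhx5, the LIM-homeodomain factor most closely related to Lhx1, was not called. It was 4.43, 3.58 and 3.97 FPKM in controls and 4.53, 5.54 and 4.90 FPKM in cKO libraries, a difference of 0.26 (interval 0.03 to 0.50, limma adjusted p = 0.165). Its groups were apart by a narrow margin. A separate row named Lhx5 held 4.42, 1.53 and 2.53 FPKM in controls and 4.32, 6.96 and 2.48 FPKM in cKO libraries, and those groups overlapped. The ratio of Lhx1 to Lhx5, which no scaling of a library can alter, was 0.642, 0.626 and 0.639 in controls and 0.947, 0.913 and 0.877 in cKO libraries. With Lhx5 read from its highest-mean row, every cKO library thus had more Lhx1 relative to Lhx5 than any control. The separate row was left out of the ratio, so the separation is shown for the highest-mean row only.

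Trp73, a p53-family factor that Cajal-Retzius cells of the hem require, was 11.3, 10.6 and 13.1 FPKM in controls and 13.7, 14.9 and 14.6 FPKM in cKO libraries. All cKO libraries were higher, by 0.29 (interval 0.10 to 0.47, limma adjusted p = 0.0649), which is under the fold threshold. Nhlh2, a neuronal helix-loop-helix factor, was 17.1, 15.8 and 17.3 FPKM in controls and 18.9, 18.0 and 20.5 FPKM in cKO libraries. It differed by 0.18 (interval 0.03 to 0.33, limma adjusted p = 0.139), again with no overlap. In all, the groups did not overlap for 5 of the 8 classic markers, all higher in cKO, where 14.9% of genes tested were apart in that direction.

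The secreted and cytoplasmic markers differed little. Reln was 94.5, 82.0 and 111 FPKM in controls and 102, 105 and 74.1 FPKM in cKO libraries. The groups overlapped fully, and the difference was −0.04 (interval −0.35 to 0.28, limma adjusted p = 0.914). Calb2 was 88.5, 102 and 94.7 FPKM in controls and 99.7, 111 and 111 FPKM in cKO libraries, with 1 cKO library inside the control range and a difference of 0.17 (interval 0.02 to 0.32, limma adjusted p = 0.155). Ndnf, which encodes a secreted neurotrophic factor, was 10.997, 11.5 and 13.4 FPKM in controls and 12.3, 12.96 and 12.2 FPKM in cKO libraries, all within the control range. Its difference was 0.06 (interval −0.12 to 0.24, limma adjusted p = 0.726).

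**Figure D1:**
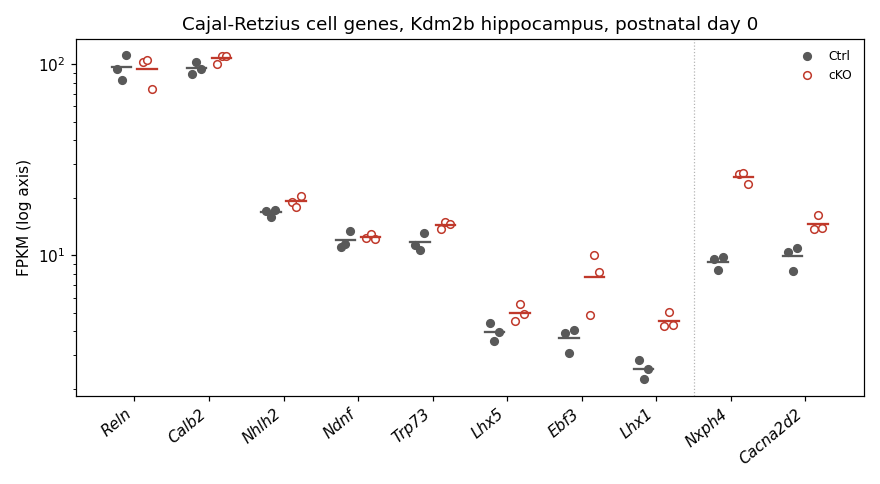
FPKM (log axis) of the 10 genes in each Kdm2b hippocampal library, controls as filled grey points, cKO as open red points and short lines at group means. Nxph4, right of the dotted line, lay between 8.34 and 9.77 FPKM in controls and between 23.7 and 27.0 FPKM in cKO libraries, while the Reln groups overlapped.

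Ratios within a library are given as a description only, since Nxph4 was picked for its rise and its ratios to other genes follow from that choice. Nxph4 relative to Trp73 was 0.846, 0.787 and 0.744 in controls and 1.94, 1.81 and 1.62 in cKO hippocampi. Nxph4 relative to Reln was 0.101, 0.102 and 0.0877 in controls and 0.260, 0.256 and 0.320 in cKO hippocampi. Trp73 relative to Reln was 0.120, 0.129 and 0.118 in controls and 0.134, 0.142 and 0.197 in cKO hippocampi, where the library with the lowest Reln gave the highest ratio.

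Of the 15 reelin pathway genes tested, 1 was called higher and 0 lower, near the 3.89% and 2.25% of all genes tested, with a median difference of −0.04. The called gene was Itga3, the integrin alpha-3 subunit, with a mean of 4.88 ± 0.112 FPKM in the controls against 8.20 ± 0.405 FPKM in the cKO (SD, n = 3, difference 0.65, limma adjusted p = 0.00282). The receptor gene Lrp8, which shared its row with Magoh, differed by 0.17 (limma adjusted p = 0.0716). Vldlr differed by −0.12 (limma adjusted p = 0.505) and Dab1 by −0.01 (limma adjusted p = 0.979).

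A further list held genes known from Cajal-Retzius cells but shared with progenitors, meninges or other neurons. Of its 13 genes 12 were tested, 7 were called higher and 0 lower, beside 3.89% and 2.25% of all genes tested, and the median difference of all 13 was 0.47. Eomes (Tbr2), made in Cajal-Retzius cells and in intermediate progenitors, rose from 14.8 ± 1.47 to 34.2 ± 2.01 FPKM (SD, n = 3, difference 1.16, limma adjusted p = 0.000118). Zic1, a zinc-finger factor of septal and hem derivatives, rose from 16.7 ± 3.41 to 43.5 ± 11.7 FPKM (difference 1.32, limma adjusted p = 0.00507). Zic2 and Zic5 rose by 0.76 and 0.84. Cxcr4, the chemokine receptor that holds Cajal-Retzius cells beneath the meninges and is also found on migrating granule cell precursors, rose by 0.47. Nxph3, the paralog of Nxph4, differed by 0.61 with overlapping groups (limma adjusted p = 0.143).

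Regulators of the hem and of Cajal-Retzius fate also included rising genes. Of 12 listed genes 11 were tested, 5 were called higher and 0 lower, beside 3.89% and 2.25% of all genes tested. The median difference over all 12 was 0.28, against 0.01 over all genes tested. Lmx1a, a LIM-homeodomain factor that marks the hem, rose from 1.29 ± 0.405 to 2.62 ± 0.380 FPKM (SD, n = 3, difference 0.67, limma adjusted p = 0.0265). Pax6, Gli3 and Otx1, which are expressed in dorsal progenitors, rose by 0.83, 0.78 and 0.62, and Dmrt3 by 0.51 (limma adjusted p = 0.0667).

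Markers of neighbouring cell types moved in part with genotype in these libraries. The choroid plexus list summed to between 5.13 and 16.3 FPKM in controls and between 7.005 and 59.2 FPKM in cKO hippocampi, and its defining marker Ttr was called higher with overlapping groups (difference 1.77, limma adjusted p = 0.194). Thalamic and habenular genes summed to between 34.5 and 38.2 FPKM in controls and between 47.5 and 51.3 FPKM in cKO hippocampi, and Lhx9 rose by 0.57 (limma adjusted p = 0.00916). Nearly all of that sum was Lhx9, Slc17a6 and Prkcd, the 3 of its 6 genes that passed the filter. It is thus a value of those 3 genes and is not read as an amount of thalamus or habenula. Shox2 was at 0 in both groups, and in cKO hippocampi Gbx2 averaged 0.228 FPKM and Pou4f1 0.0484 FPKM. The meninges list (37.3 to 50.7 FPKM in controls, 30.2 to 48.5 FPKM in cKO) and the interneuron list (278 to 298 FPKM and 270 to 346 FPKM) overlapped between the groups. The dentate granule lineage list had 0 of 5 tested genes called, and the telencephalic list had 1 of 8, the progenitor gene Nes (difference 0.52, limma adjusted p = 0.0238). Of 8 multiciliated cell genes tested, 2 were called lower and 0 higher, beside 2.25% and 3.89% of all genes tested. Rsph1 was one of them (difference −0.62, limma adjusted p = 0.0209). Tmem212, over the filter only through its controls, went from 2.34 ± 0.278 to 0.431 ± 0.403 FPKM (SD, n = 3) and is given no test. Of the 9 genes listed, 4 had a positive difference. The part of these cells in the values of Lhx1, Ebf3 and the other members was not tested.

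In Kdm2b cKO neocortex the picture differed. Nxph4 was again higher, at 35.2 and 25.4 FPKM against 9.59 and 8.99 FPKM in controls, a 3.26-fold ratio of means, but 7 of the 8 classic markers had lower means in cKO. Nhlh2 was the one called lower, and none was called higher, where 2.28% of the 15691 genes tested were called lower and 4.73% higher. The median difference of the 8 classic markers was −0.33, against −0.01 over all genes tested. Cacna2d2 was 4.50 and 3.59 FPKM in controls and 4.54 and 4.60 FPKM in cKO neocortex, a small gap without overlap.

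Nhlh2 was 5.01 and 3.83 FPKM in control and 3.07 and 2.44 FPKM in cKO neocortex. It fell by 0.53 on the log2(FPKM + 1) scale (interval −0.91 to −0.14, limma unadjusted p = 0.0172, adjusted p = 0.264). The call was lost when control library 1 or cKO library 2 was left out, with differences of −0.37 and −0.40. Ndnf was 2.93 and 2.78 FPKM in controls and 2.06 and 2.004 FPKM in cKO neocortex, tight in each group, with a difference of −0.35 (interval −0.58 to −0.11, limma adjusted p = 0.245). Trp73 was 2.93 and 2.25 FPKM in controls and 2.11 and 1.21 FPKM in cKO neocortex, a difference of −0.45 (interval −0.96 to 0.07, limma adjusted p = 0.455). Lhx5 was 2.30 and 1.56 FPKM in controls and 1.36 and 1.25 FPKM in cKO neocortex, a difference of −0.33 (interval −0.73 to 0.07, limma adjusted p = 0.477).

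Lhx1 lay under the filter of 0.5 FPKM on the mean in neocortex and was not tested. It was 0.635 and 0.474 FPKM in controls and 0.275 and 0.197 FPKM in cKO neocortex. Those values stand for 57 and 41 reads in controls and 22 and 15 reads in cKO libraries, as recovered from the FPKM and the gene lengths. The groups of Nhlh2, Ndnf, Trp73, Lhx5 and Lhx1 did not overlap, all lower in cKO, where 22.8% of genes tested were apart in that direction. Reln was 10.5 and 9.37 FPKM in controls and 10.4 and 7.09 FPKM in cKO neocortex (difference −0.18, interval −0.64 to 0.28). Calb2 (difference −0.03) and Ebf3 (difference 0.10) also overlapped between groups.

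**Figure D2:**
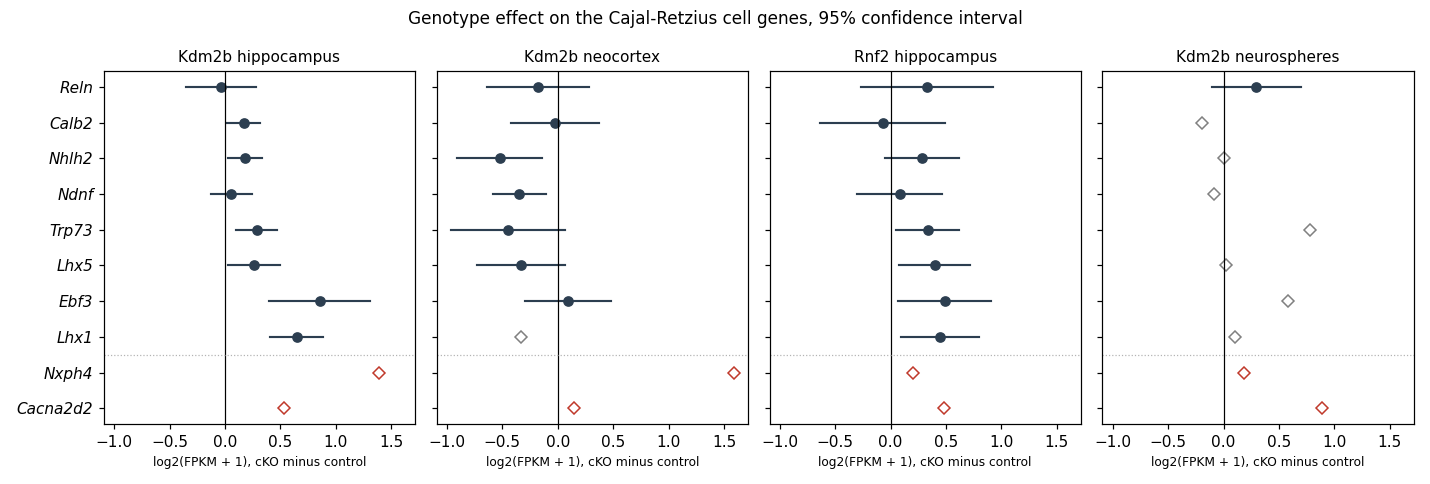
Difference of log2(FPKM + 1), cKO minus control, for each gene in the 4 comparisons, with filled points and 95% confidence intervals for tested classic markers, grey diamonds for markers under the filter or over it only through the cKO libraries, and red diamonds for Nxph4 and Cacna2d2, which carry no test. Nxph4 sits at 1.39 and 1.59 in Kdm2b hippocampus and neocortex and at 0.20 in Rnf2 hippocampus, while the classic markers lie mostly right of 0 in the hippocampi and left of it in neocortex.

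Meningeal genes were higher in both cKO neocortical libraries than in both controls. The list of 8 summed to 1.31 and 2.08 FPKM in controls and to 34.2 and 23.3 FPKM in cKO libraries. Its genes below passed the filter only through the cKO libraries, so they are given as values with no test. Dcn, which encodes the fibroblast proteoglycan decorin, went from 0.373 ± 0.0990 to 5.88 ± 0.425 FPKM (SD, n = 2, difference 2.33). The retinoic acid enzyme gene Aldh1a2 went from 0.0724 ± 0.0740 to 4.44 ± 1.64 FPKM (difference 2.31). Cajal-Retzius cells lie directly beneath the meninges. The part of retained meninges in the neocortical values of Nxph4 and the classic markers was not tested. The interneuron list summed to between 151 and 192 FPKM in controls and between 101 and 145 FPKM in cKO libraries. Npy, the neuropeptide Y gene of interneurons, fell by 1.63 (limma adjusted p = 0.156), while Dlx1 (difference −0.05) and Sst (difference 0.21) overlapped.

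The genotype effect was next compared between Kdm2b neocortex and Kdm2b hippocampus with an interaction term in limma over the 10708 genes tested in both, of which 1.61% differed at an adjusted p under 0.05. Nhlh2 differed between the tissues by −0.71 (interval −1.04 to −0.38, adjusted p = 0.0432), but its adjusted p was under 0.05 in 6 of 16 settings, with a range from 0.0234 to 0.167. Leaving out any single library of either tissue, other than neocortical control library 2, took it above 0.05. Trp73 differed by −0.74 (interval −1.17 to −0.31, adjusted p = 0.104), Lhx5 by −0.59 (adjusted p = 0.155), Ndnf by −0.40 (adjusted p = 0.164) and Ebf3 by −0.76 (adjusted p = 0.279). Reln (−0.14) and Calb2 (−0.20) had intervals that spanned 0. The 2 tables came from different processing, which this term cannot separate from tissue.

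Genes around the Cajal-Retzius programme did not follow the hippocampal pattern uniformly in neocortex. Of the 13 further Cajal-Retzius genes 2 of 10 tested were called higher and 1 lower, beside 4.73% and 2.28% of all genes tested. Zic1 (difference 0.87) and Zic2 (0.70) were called, whereas Eomes (−0.04) and Cxcr4 (−0.03) were not. Itga3 was again the called gene of the reelin pathway (difference 0.75, limma adjusted p = 0.112). Lrp8, Vldlr and Dab1 differed by −0.18, 0.00 and 0.11 and were not called.

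In Rnf2 cKO hippocampi, most classic markers had higher means, and Nxph4 did not stand out. Lhx1 and Ebf3 were called higher and 0 of the 8 lower, where 2.86% of the 15764 genes tested were called higher and 1.85% lower. No gene of this table had an adjusted p under 0.05 in limma, while 692 were higher and 429 lower at an unadjusted p under 0.05, and limma-voom on recovered reads gave an adjusted p under 0.05 to 4 genes. The median difference of the 8 classic markers was 0.33, against −0.0002 over all genes tested.

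Lhx1 was 2.36 and 2.72 FPKM in Rnf2 controls and 3.69 and 3.95 FPKM in Rnf2 cKO libraries, which stand for 144 and 172 against 248 and 260 reads. The difference was 0.45 (interval 0.09 to 0.80, limma unadjusted p = 0.0222, adjusted p = 0.679). Ebf3 was 1.64 and 2.17 FPKM in controls and 2.87 and 3.26 FPKM in cKO libraries, a difference of 0.49 (interval 0.07 to 0.91, limma unadjusted p = 0.0295). Both calls were lost when control library 1 or either cKO library was left out. Lhx5 was 3.63 and 3.87 FPKM in controls and 5.09 and 5.42 FPKM in cKO libraries, a difference of 0.40 that lay just under the fold threshold (interval 0.08 to 0.71, limma unadjusted p = 0.0229).

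Trp73 was 8.89 and 9.81 FPKM in Rnf2 controls and 11.9 and 12.1 FPKM in cKO libraries, a difference of 0.33 (interval 0.05 to 0.62, limma unadjusted p = 0.0299). Nhlh2 was 13.8 and 15.8 FPKM in controls and 16.8 and 19.7 FPKM in cKO libraries, a difference of 0.28 (interval −0.05 to 0.62). The groups of these 5 transcription factors did not overlap, where 19.5% of genes tested were apart in that direction. Reln was 42.1 and 64.8 FPKM in controls and 57.3 and 75.5 FPKM in cKO libraries, which overlapped (difference 0.33, interval −0.27 to 0.92). Calb2 (difference −0.07, interval −0.64 to 0.49) and Ndnf (difference 0.08, interval −0.31 to 0.47) overlapped too.

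Nxph4 was 8.14 and 6.68 FPKM in Rnf2 controls and 7.62 and 9.70 FPKM in Rnf2 cKO libraries, overlapping groups with a difference of 0.20. Relative to Trp73 it was 0.916 and 0.680 in controls and 0.639 and 0.800 in cKO libraries. Cacna2d2 was 3.85 and 6.71 FPKM in controls and 6.50 and 8.70 FPKM in cKO libraries, again overlapping, with a difference of 0.48. The Lhx1 to Lhx5 ratio was 0.651 and 0.701 in controls and 0.725 and 0.728 in cKO libraries, apart by a narrow margin.

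**Figure D3:**
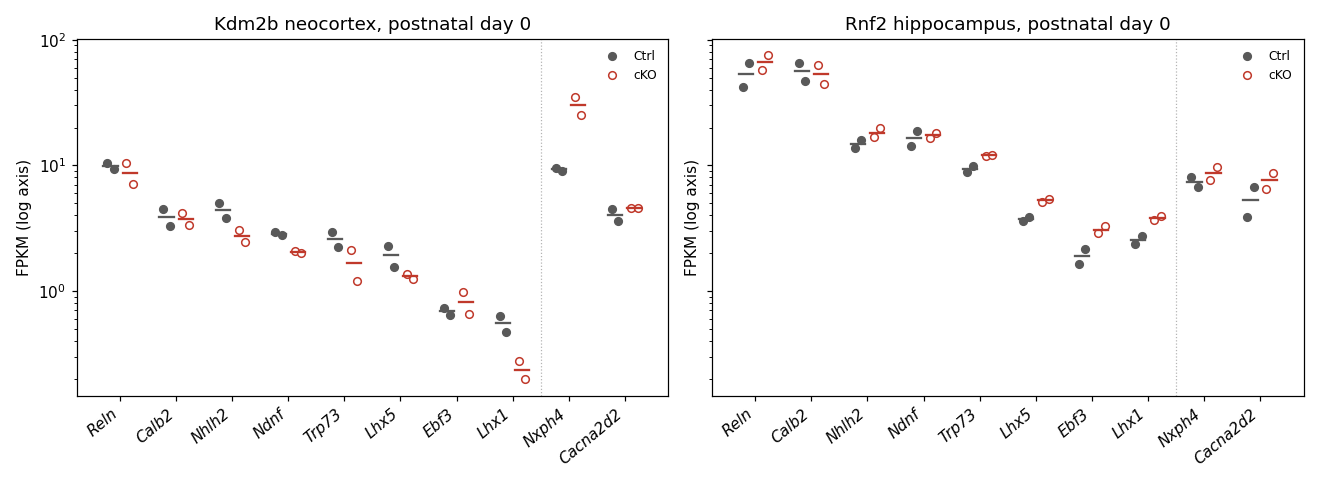
FPKM (log axis) of the 10 genes in each library of Kdm2b neocortex (left) and Rnf2 hippocampus (right), controls as filled grey points, cKO as open red points and short lines at group means. In neocortex Nxph4 reached 25.4 and 35.2 FPKM in cKO libraries while Lhx1 was at 0.197 and 0.275 FPKM, and in Rnf2 hippocampus the Nxph4 groups overlapped.

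Between the Rnf2 and Kdm2b hippocampi, the genotype effect on none of the 8 classic markers differed at an adjusted p under 0.05, and 0.683% of the 11266 genes tested did. The intervals were wide. The difference between the effects was −0.20 for Lhx1 (interval −0.56 to 0.16), −0.37 for Ebf3 (−1.03 to 0.30), 0.05 for Trp73 (−0.24 to 0.34) and 0.36 for Reln (−0.25 to 0.98).

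Of the wider Cajal-Retzius genes, 0 of 12 tested were called in either direction in Rnf2 cKO hippocampi, including Eomes (difference 0.08), Zic1 (0.08) and Nxph3 (−0.06). Of 11 regulators of hem and Cajal-Retzius fate tested, Dmrt3 alone was called higher (0.54, limma adjusted p = 0.655). None was called lower, and 2.86% and 1.85% of all genes tested were called higher and lower. Lmx1a differed by 0.41 (limma adjusted p = 0.727). The median difference of the 12 listed regulators was 0.24, against −0.0002 over all genes tested. The groups of 9 regulators did not overlap, all higher in cKO, where 19.5% of genes tested were apart in that direction. No reelin pathway gene was called, with Lrp8 at 0.28, Vldlr at −0.15 and Dab1 at −0.15. The meninges list was lower here, with a sum between 32.0 and 32.9 FPKM in controls and between 15.8 and 23.3 FPKM in cKO libraries. Of its 7 tested genes 4 were called lower, beside 1.85% of all genes tested, among them Col1a1 (difference −0.83, limma adjusted p = 0.647). The sum of the choroid plexus list, most of it Ttr, ranged from 12.6 to 49.99 FPKM in controls and from 7.55 to 240 FPKM in cKO libraries. The part of these tissues in the values of the members was not tested.

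**Figure D4:**
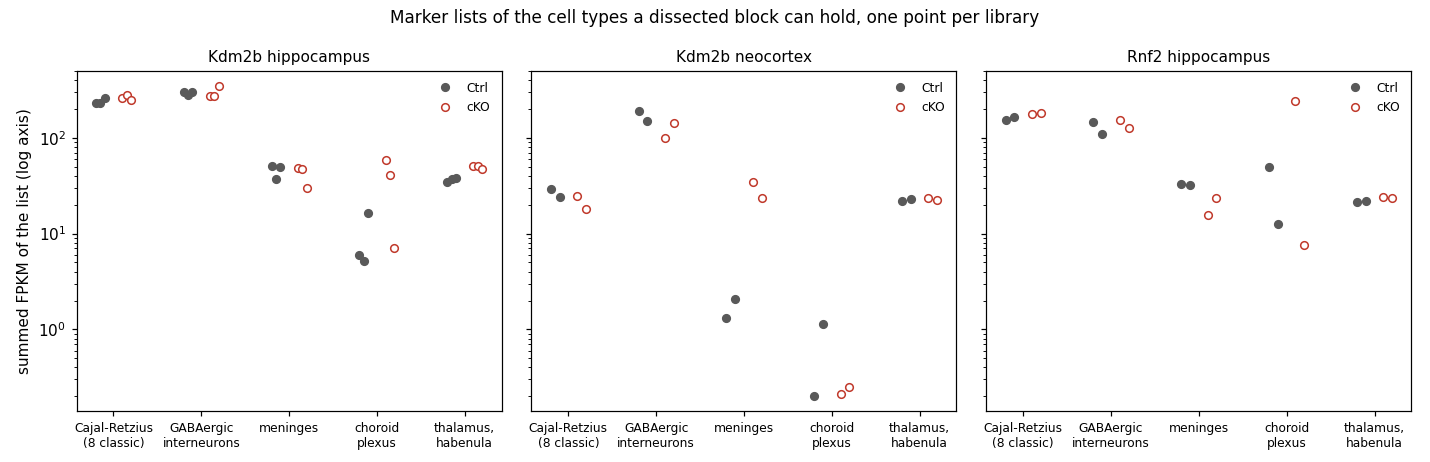
Summed FPKM (log axis) of marker lists in each library of the 3 tissue comparisons, controls as filled grey points and cKO as open red points. The meninges sum was 1.31 and 2.08 FPKM in control against 23.3 and 34.2 FPKM in cKO neocortex, was lower in cKO than in control Rnf2 hippocampus and overlapped in Kdm2b hippocampus. The sum of the 8 classic markers, most of it Reln and Calb2, was 231 to 261 against 249.6 to 282 FPKM in Kdm2b hippocampus, 24.2 and 29.4 against 18.2 and 24.4 FPKM in neocortex, and 152 and 165 against 177 and 182 FPKM in Rnf2 hippocampus (control against cKO).

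Most members were low in neurospheres. Nhlh2 was listed at 0 in all 4 libraries, and Lhx1 and Lhx5 were listed at 0 in both controls, with at most 0.135 and 0.0271 FPKM in a cKO library. Calb2 and Ndnf stayed under 0.6 FPKM in every library and so did Nxph4, at 0.434 and 0.228 FPKM in controls and 0.454 and 0.557 FPKM in cKO libraries. Nhlh2, Lhx1, Lhx5, Calb2 and Ndnf were thus at or near 0 in these cultures, whereas Reln was between 1.81 and 2.98 FPKM. Cacna2d2 was 2.15 and 1.72 FPKM in controls and 4.62 and 4.202 FPKM in cKO neurospheres, a 2.28-fold ratio without overlap.

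Of the 8 classic markers, Reln, Trp73 and Ebf3 passed the filter on low values, Trp73 and Ebf3 only through their cKO libraries. A gene that passes in this way had to differ, so no test is given for these, and nothing is read from their calls in a table in which 11.4% of the 12227 genes tested were called higher and 13.2% lower. Trp73 was 0.169 and 0.218 FPKM in controls and 1.05 and 1.04 FPKM in cKO neurospheres, a difference of 0.78 on the log2(FPKM + 1) scale, with both cKO libraries above both controls. Ebf3 was 0.373 and 0.443 FPKM in controls and 0.774 and 1.49 FPKM in cKO neurospheres, a difference of 0.58, again without overlap. Reln was 2.53 and 1.81 FPKM in controls and 2.98 and 2.75 FPKM in cKO neurospheres, a difference of 0.30 (interval −0.10 to 0.70, limma adjusted p = 0.233).

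The effect on Reln in neurospheres minus that in hippocampus was 0.33 in the limma interaction test (interval −0.17 to 0.83, adjusted p = 0.309), in a comparison where 26.9% of 11075 genes differed at an adjusted p under 0.05. Of 9 further Cajal-Retzius genes tested in neurospheres 2 were called higher, 1 of them over the filter only through its cKO libraries, and 1 was called lower, and of 10 fate regulators 0 were called higher and 2 lower. Of 15 reelin pathway genes 2 were called higher and 1 lower. Of all genes tested in neurospheres, 11.4% were called higher and 13.2% lower. Among the reelin pathway genes Lrp8 rose from 11.9 ± 0.377 to 17.9 ± 1.34 FPKM in cKO neurospheres (SD, n = 2, difference 0.54, limma adjusted p = 0.0127).

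The members lie on 9 chromosomes in the GRCm38 coordinates of the neocortical table. Reln (21884454 to 22344702, minus strand) and Lhx5 (120431699 to 120441223, plus strand) are far apart on chromosome 5, and no members are neighbours. An exon of a gene on the opposite strand shares bases with Reln (Gm10475), Trp73 (Trp73os), Lhx5 (Gm27199), Ebf3 (Gm45278) and Cacna2d2 (Gm17141). The sources did not state whether counting used strand, so reads of those partners cannot be told apart from the members' own. Lhx1 (chromosome 11, 84518284 to 84525535), Calb2, Nhlh2, Ndnf and Nxph4 (chromosome 10, 127525473 to 127534559) shared no exon bases with another gene.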

How the data were processed

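Poly(A)-selected RNA of mouse hippocampus, neocortex and hippocampal neurospheres was sequenced by the authors. The deposited FPKM values were made by the authors with cutadapt, STAR (mm10) and Cufflinks 2.2.1 for Kdm2b hippocampus and neurospheres. For neocortex and Rnf2 hippocampus the tool behind the deposited FPKM is not given in the sources used here. Replicates were not pooled. Each table was normalised and fitted by itself. The study's methods state a single sequencing depth for its RNA-seq libraries. The reads counted in each library cannot be recovered from the Cufflinks values. In the other tables, FPKM times gene length gave whole reads (within 0.01) for 99.7% to 100% of values, which implies 18.7 to 22.0 M reads per neocortical and 14.96 to 16.5 M per Rnf2 library. Cufflinks estimates of low genes carry more error than their 2 or 3 libraries show.

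From these values, log2(FPKM + 1) was fitted with limma 3.58.1 (lmFit, eBayes with a trend) in R 4.3.3, for genes averaging 0.5 FPKM or more. A gene was called at a difference over 0.4 in size with an unadjusted p under 0.05. Adjusted p-values are Benjamini-Hochberg over all genes of a table. This scale understates changes of low genes. The unit was FPKM, so the count test of the study's methods was not used. Fits were tested on simulated data. Named were all 10 members, the targeted genes, reelin receptors and Dab1, called genes of the reelin, Cajal-Retzius and fate lists in Kdm2b hippocampus, and up to 3 genes per other cell type list with the highest mean. Names outside this rule were Eomes, Cxcr4, Zic1, Zic2 and Nxph3 values in other tables, Lmx1a in Rnf2 hippocampus and Nes. Others were Gbx2, Shox2, Pou4f1 and Tmem212 in Kdm2b hippocampus, and the library checks Xist and Mir6236. A called gene of the further Cajal-Retzius list is counted but not reported here by name. Members, lists and tests were chosen with earlier results of these data known. Nxph4 and Cacna2d2 were picked for their rise, in a table the rule does not name, and were not tested. Alternatives were other pseudocounts, filters, scalings, variance models, call rules, blocks and left-out libraries.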

Additional observations from a re-analysis of the deposited data

Results flagged for a closer look

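The genotype effect on Trp73 differed between neurospheres and hippocampus of the Kdm2b series by 0.49 on the log2(FPKM + 1) scale, with higher cKO values in 2 of 2 neurosphere and 3 of 3 hippocampal libraries. Its neurosphere controls were at 0.169 and 0.218 FPKM, and it passed the filter there only through its cKO libraries, so this difference is a description and its test is not used.

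The effect on Nhlh2 differed between neocortex and hippocampus of the Kdm2b series by −0.71 (limma interaction, adjusted p = 0.0432). The adjusted p rose above 0.05 with no filter and when any single hippocampal library was left out. Different processing of the 2 tissues cannot be separated from tissue here. All cKO libraries were lower than all controls in neocortex, and all were higher in hippocampus.

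Lhx1 lay in opposite directions in the same tissues, with a difference of −0.33 in neocortex and 0.65 in hippocampus. At 0.5 FPKM as the filter this difference was not tested. With no filter, an alternative chosen after seeing the data, it was −0.98 (limma interaction, adjusted p = 0.0270). The neocortical values rest on 57 and 41 reads in controls and 22 and 15 reads in cKO libraries. The 2 tissues also came from different processing, which this term cannot separate from tissue.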

How the results depend on the processing

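In Kdm2b hippocampi the count of 2 called classic markers held under the other pseudocount, filters, scalings, variance model, summed entries, the replicate block and each left-out library, and with an adjusted p in the call. It was 6 with no fold threshold. At an unadjusted p under 0.05 in limma and no fold threshold, 11.4% of all genes tested were higher and 11.5% lower in Kdm2b hippocampi. The shares were 7.72% and 5.1% in neocortex, and 4.39% and 2.72% in Rnf2 hippocampi. In neurospheres the count of 2, Trp73 and Ebf3, is not read as a result, since both passed the filter only through their cKO libraries. It became 0 with a filter at 1 FPKM, 1 with an adjusted p and 0 to 1 with a library left out, and the median of the 8 markers went from 0.06 to 0.29 with a pseudocount of 0.1 FPKM. In neocortex the count of 1 became 2 with that pseudocount, 2 with the replicate block, 3 with limma-voom on recovered reads, 2 with no fold threshold, 0 with an adjusted p and 0 to 3 with a library left out. The neocortical median was −0.49 with the pseudocount of 0.1 FPKM and −0.39 to −0.20 with a library left out. In Rnf2 hippocampi the count of 2 became 1 with no filter, 4 with no fold threshold, 0 with an adjusted p and 0 to 4 with a library left out. The interaction count for neurospheres, 1 (Trp73, with the same limit), became 0 at a filter of 1 FPKM, 2 with no filter (Trp73 higher, Lhx1 lower), 0 when libraries were rescaled to the same total and 0 to 1 with a library left out. That for neocortex, 1, became 0 to 1 with a library left out, where it was Ebf3 without hippocampal cKO library 1 and Trp73 without neocortical cKO library 1, and with no filter it was Lhx1 in place of Nhlh2, and that for Rnf2 hippocampus stayed at 0. No member that was called changed direction. Where 1 library remained in an arm, limma took it to vary like the others. Same-numbered libraries did not deviate together (correlations of 0.05, −0.10 and −0.09 in Kdm2b hippocampus, −0.28 in neurospheres, −0.05 in neocortex and 0.16 in Rnf2 hippocampus), so the numbers were not read as pairs. The replicate block left 2 called in Kdm2b hippocampus, in neurospheres and in Rnf2 hippocampus, and a crossed block in neurospheres, chosen after seeing the data as were the interaction alternatives, also gave 2. Rescaling to the same total shifted the median of all neurosphere genes by 0.11. The causes were not tested, except that fewer genes were tested under the stricter filter. The reads counted in each library of the Cufflinks tables cannot be recovered, and 2 libraries a group limit the precision.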
